A study of Homo sapiens with 12 samples.

Results

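The genes described here are 10 genes that lie at loci associated with type 2 diabetes: *TCF7L2*, *CDKAL1*, *ADCY5*, *GLIS3*, *JAZF1*, *THADA*, *CAMK1D*, *UBE2E2*, *ZMIZ1* and *PROX1*. They were picked by symbol, and each matched 1 of the 35337 rows of the expression table. Their mRNA was measured by CEL-seq, which reads the 3′ end of polyadenylated transcripts, in the human beta-like line EndoC-βH3. The line was made from fetal pancreas by introducing hTERT and SV40 large T antigen, both of which can be excised by a recombinase that 4-hydroxytamoxifen activates. The genotype is labelled WT in every sample. There were 6 libraries of control, non-senescent cells and 6 of cells made senescent by 3 weeks of 4-hydroxytamoxifen. Sample titles carry the letters A (2 libraries per group) and B (4 per group), taken here as batches. All libraries came from 1 cell line, and no label ties them to separate cultures, so p-values measure the spread between these libraries, which may be technical. Whether the agent itself or the excision moved a gene cannot be told apart, because no sample here received 4-hydroxytamoxifen without the excision.

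Genome-wide association studies link these loci to diabetes risk, in large part through insulin secretion, but most risk variants are noncoding and the gene each acts through is not settled by position alone. The 10 genes do not form a single pathway. Several encode nuclear regulators of transcription: TCF7L2 is an effector of Wnt/β-catenin signaling, GLIS3 is a zinc finger factor that activates the insulin gene, JAZF1 is a zinc finger cofactor of nuclear receptors and histone acetylation, PROX1 is a homeodomain factor of pancreas development, and ZMIZ1 is a PIAS-like coactivator. The others act in RNA modification, signaling and protein turnover: CDKAL1 modifies a lysine transfer RNA, ADCY5 makes cAMP, CAMK1D is a calmodulin-dependent kinase, and UBE2E2 is a ubiquitin-conjugating enzyme. THADA was named for its rearrangement in thyroid adenomas and has been tied to energy balance.

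The RefSeq promoters (GRCh38.p14, 250 bases upstream of the transcription start) of 3 genes are shown because they are the listed members that moved in opposite directions: *TCF7L2* and *CDKAL1*, which were lower in senescent cells, and *GLIS3*, which was higher. Capitals mark matches, on either strand, to the GC box, the TATA box, the cAMP response element core or the TCF/LEF core, each spelled out further on. The CCAAT box was searched too and had no match in them. *JAZF1*, *PROX1* and *ZMIZ1* had no entry in the promoter table.
TCF7L2, chr10:112949997-112950246, plus strand: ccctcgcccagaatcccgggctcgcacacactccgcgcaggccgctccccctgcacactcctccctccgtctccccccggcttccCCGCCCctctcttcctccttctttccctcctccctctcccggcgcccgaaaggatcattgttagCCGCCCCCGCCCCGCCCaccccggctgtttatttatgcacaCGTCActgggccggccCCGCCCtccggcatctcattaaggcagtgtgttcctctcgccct
CDKAL1, chr6:20534207-20534456, plus strand: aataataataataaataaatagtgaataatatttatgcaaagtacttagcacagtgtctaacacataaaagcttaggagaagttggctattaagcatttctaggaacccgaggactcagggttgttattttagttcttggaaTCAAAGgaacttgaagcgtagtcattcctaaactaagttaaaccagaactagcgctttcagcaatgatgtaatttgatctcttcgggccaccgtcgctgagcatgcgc
GLIS3, chr9:4298497-4298746, minus strand: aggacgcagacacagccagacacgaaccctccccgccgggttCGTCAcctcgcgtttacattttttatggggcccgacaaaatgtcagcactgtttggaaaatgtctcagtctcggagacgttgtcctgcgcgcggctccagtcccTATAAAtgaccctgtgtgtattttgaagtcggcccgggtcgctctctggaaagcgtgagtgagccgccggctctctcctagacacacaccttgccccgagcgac
RefSeq lists 3 promoters for *TCF7L2* and 2 for *GLIS3*, and the ones shown lie upstream of the others. The *TCF7L2* promoter shown was GC-rich, at 68.0% G and C against a median of 58.0% over 34788 promoters, and held 5 GC boxes (GGGCGG), of which 2 share a base. GC boxes were found in 42.6% of all promoters. It also held 1 cAMP response element core (TGACG), a motif of 21.2% of promoters. Its other promoters had 42.4% and 48.4% G and C and no GC box, and 1 of them held a CCAAT box, a motif of 32.0% of promoters. The *CDKAL1* promoter was AT-rich, with 37.2% G and C, and its only match was a TCF/LEF core (CTTTGA), on the reverse strand, a motif present in 11.2% of all promoters. The *GLIS3* promoter shown held a TATA box (TATAAA) at positions -104 to -99, a motif found in 10.8% of promoters, and 1 cAMP response element core. Its other promoter, with 42.0% G and C, had a TCF/LEF core and no TATA box. These matches are letters in a window and carry no evidence of binding.

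Depth differed between batches, with 8873569 to 17106776 reads per library in A and 4672924 to 7063264 in B. It also differed between groups, as every senescent library was deeper than every non-senescent one of its batch. In A they held 13059934 and 17106776 reads against 8873569 and 12792199. In B they held 5973370 to 7063264 against 4672924 to 5746836. The part of this difference in the results below was not tested. Values are normalised read counts, that is, read numbers divided by a size factor per library. The label of the cells was checked on marker lists. All 7 beta-cell markers were detected, with a summed level of 17183 to 40366 in non-senescent and 58027 to 200338 in senescent libraries. Of these markers, *INS*, *IAPP*, *PDX1* and *MAFA* were called higher by the test given below, *UCN3* (log2 fold change −0.63) and *PCSK1* (−1.06) were called lower, and *NKX6-1* had a change of −0.37. The summed alpha-cell markers were at 49292 to 124131 and 155263 to 244267, with *TTR* (1.59) and *LOXL4* (2.28) called higher and the glucagon gene *GCG* (−1.30) lower. The summed delta-cell markers were at 160231 to 288403 and 115659 to 143213, with the somatostatin gene *SST* (−0.64), *HHEX* and *LEPR* called lower and *RBP4* higher. Neither sum overlapped between the groups. The ductal list summed to 247 to 379 in non-senescent and 80.4 to 162 in senescent libraries, with *KRT19* as its only gene past the filter below. The acinar list summed to 33.9 to 58.4 and 143 to 251, with *CPA1* as its only such gene. The acinar markers *PTF1A* and *CTRB2*, *VWF* of endothelium, *CD3E* of T cells and *PDGFRB* of mesenchyme had no reads in any library. Mesenchymal, endothelial and immune sums stayed at or under 126 in every library and overlapped between the groups. The part of these shifts in the results below was not tested.

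In the main test, *JAZF1* and *GLIS3* were upregulated in senescent cells, none of the members was called lower, and *TCF7L2* and *CDKAL1* fell by less than the fold limit. A call required an adjusted p below 0.1 together with a change of more than 1.5-fold (limma, with batch in the model), and 13847 genes whose mean value reached 5 were tested. Of the 10 members, 8 passed that filter. *ADCY5* and *UBE2E2* did not. No member was called lower by limma, edgeR or DESeq2. At an unadjusted limma p under 0.05, 3 members were lower (*TCF7L2*, *CDKAL1* and *THADA*) and 2 higher (*JAZF1* and *GLIS3*). The share of all genes under that limit was not counted, so nothing is read from these counts. The 2 called members stand against 23.4% of all genes tested, or 11.6% called higher and 11.8% called lower. Without the fold limit 4 members passed, beside 45.5% of all genes, and 2 of these (beside 22.1%) had a fold under 1.5. The other 4 did not pass. The median log2 fold change of the 8 tested members was 0.06, beside 0.01 over all genes tested, and their median absolute change was 0.45, beside 0.33. As a set, the diabetes genes therefore did not move in a single direction. In these bulk samples, fewer cells expressing a gene and less of its RNA per cell cannot be told apart.

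**Figure D1:**
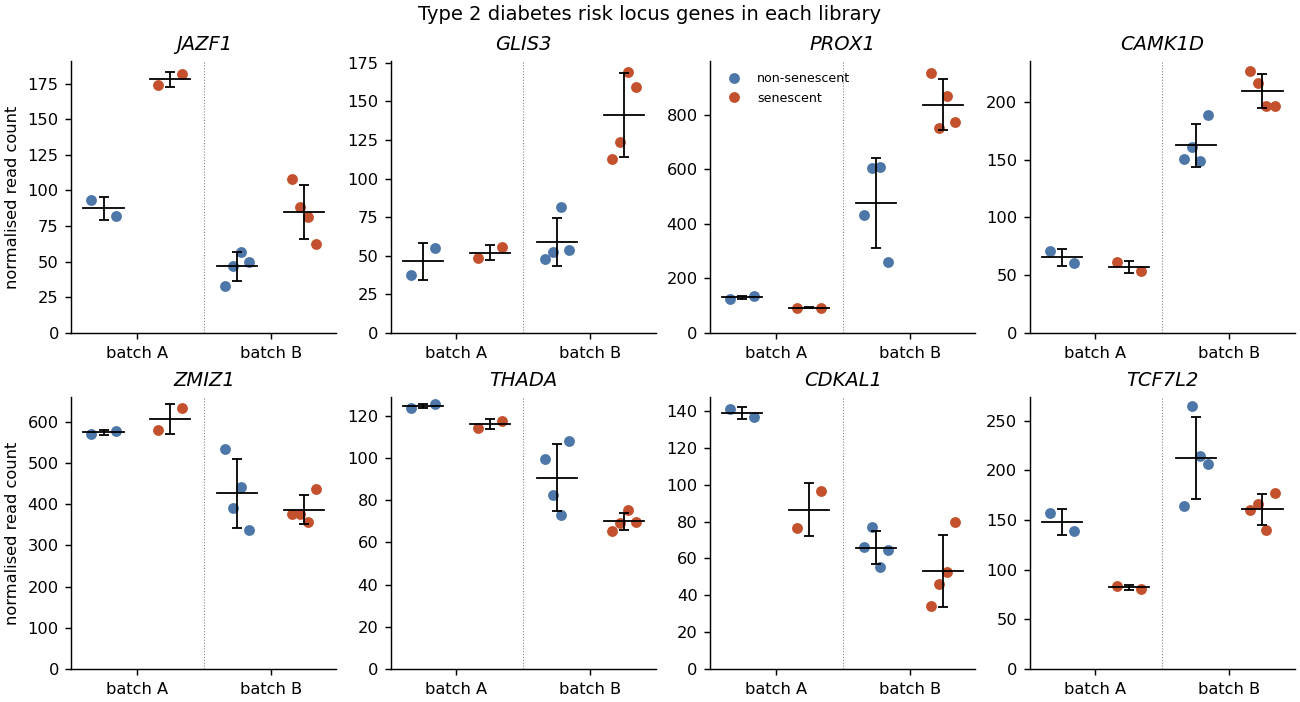
Normalised read count (vertical axis, linear, from 0) of the 8 tested genes in each of the 12 libraries, split by batch, with non-senescent libraries in blue and senescent libraries in orange. Lines and bars give the mean ± SD (n = 2 per group in batch A, n = 4 in batch B). *JAZF1* was higher in senescent cells of both batches without overlap, whereas *PROX1* was lower in batch A and higher in batch B.

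*JAZF1* (ENSG00000153814.13, chr7:27830573-28180795, minus strand) rose in both batches. In batch A its normalised read count was 93.4 and 81.9 in non-senescent and 174 and 182 in senescent libraries. In batch B it was 33.1, 46.8, 57.0 and 49.7 in non-senescent against 108, 88.2, 81.3 and 62.3 in senescent libraries. The groups did not overlap in either batch. It was the sole member that separated the groups in the same direction in both, as 23.8% of all genes tested did. Its log2 fold change was 0.91 ± 0.16 (SE, 95% interval 0.57 to 1.25, limma adjusted p = 0.00026), a 1.87-fold increase. The change was 1.02 in A and 0.85 in B. The 3′ part of *JAZF1* faces *TAX1BP1*, a gene on the opposite strand whose annotated gene body overlaps it by 14.0 kb, and some annotated exons of both share bases. The main transcripts end 0.809 kb apart and do not overlap. Whether counting used strand is not stated, so reads from shared bases cannot be told apart. *TAX1BP1* itself had a log2 fold change of 0.20 ± 0.11 (limma adjusted p = 0.169), with −0.20 in A and 0.40 in B. Whether its reads contributed to the values of *JAZF1* was not tested.

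*GLIS3* (ENSG00000107249.24, chr9:3824127-4348392, minus strand) passed the test within batch B (limma adjusted p = 0.0002) and not within batch A (0.757). Its normalised read count in batch A was 37.8 and 54.8 in non-senescent and 48.5 and 55.6 in senescent libraries, which overlap. In batch B it was 48.2, 52.3, 81.8 and 53.4 against 113, 124, 169 and 159, where the lowest senescent library lay above the highest non-senescent one. The log2 fold change over both batches was 0.90 ± 0.21 (SE, 95% interval 0.46 to 1.34, limma adjusted p = 0.0023). Within batches it was 0.18 ± 0.29 in A and 1.26 ± 0.21 in B. The difference between batches, 1.07 ± 0.36, did not pass the interaction test (limma adjusted p = 0.146), so a response restricted to B was not shown. In the annotation 2 genes share exon bases with *GLIS3*, among them *GLIS3-AS1* on the opposite strand, and neither was in the expression table. *TCF7L2*, *PROX1*, *THADA* and *ADCY5* each share exon bases with 1 annotated gene. Whether reads of such genes contributed to the values of the members was not tested.

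*TCF7L2* (ENSG00000148737.18, chr10:112950247-113167678, plus strand), the locus with the best known common association with type 2 diabetes, was lower in senescent cells in both batches. Its normalised read count in batch A was 157 and 139 in non-senescent and 83.9 and 80.3 in senescent libraries, with no overlap. In batch B it was 164, 264, 215 and 206 against 160.0, 166, 139.6 and 177, and the non-senescent library at 164 lay within the senescent range. The log2 fold change was −0.54 ± 0.13 (SE, 95% interval −0.81 to −0.27, limma adjusted p = 0.0031), which is a level of 0.689 times the non-senescent one and falls short of the fold limit. In batch A alone the change was −0.84, in batch B −0.39. The side of the fold limit varied with the libraries and the scaling. Without the non-senescent library B1 the change was −0.63 (limma adjusted p = 6.0e-04). With every library scaled to the same total it was −0.64 (limma adjusted p = 0.0011). In either case *TCF7L2* would be called lower. Without batch in the model its adjusted p did not pass (limma, 0.169). The change does not distinguish the many transcript forms of this gene, of which 31 are annotated, because reads were summed per gene at the 3′ end.

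*CDKAL1* (ENSG00000145996.11, chr6:20534457-21232404, plus strand) is the longest member, with a span of 698 kb, and had a similar direction with more scatter. Its normalised read count in batch A was 141 and 137 in non-senescent and 76.3 and 96.6 in senescent libraries. In batch B it was 66.3, 77.1, 55.5 and 64.6 against 33.9, 46.2, 52.6 and 79.7. The groups were apart in A, and in B the senescent library B4, at 79.7, lay above all non-senescent libraries. The log2 fold change was −0.47 ± 0.18 (SE, 95% interval −0.85 to −0.09, limma adjusted p = 0.0504). Without the senescent library B4 it was −0.62 (limma adjusted p = 0.0054), which would be called lower. Over the libraries left out in turn, the adjusted p ranged from 0.0054 to 0.126. Its lowest library held 28 reads, for which counting alone gives an error of 18.9% of the value.

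*PROX1* (ENSG00000117707.17, chr1:213983181-214041510, plus strand) showed opposite changes in the batches. In batch A its normalised read count was 126 and 135 in non-senescent and 90.2 and 93.0 in senescent libraries. In batch B it was 432, 604, 609 and 260.9 against 955, 751, 870 and 776. The groups did not overlap in either batch, lower in A and higher in B, a pattern found in 1.85% of all genes tested, or in 1.12% together with a passed interaction test. The log2 fold change was −0.51 ± 0.29 in A (limma adjusted p = 0.274) and 0.88 ± 0.20 in B (limma adjusted p = 0.0028). Both p-values rest on a spread shared by the batches. With batch A fitted alone, the same change of −0.51 had a limma adjusted p of 0.0227, under the fold limit. The pooled value of 0.42 ± 0.23 (95% interval −0.06 to 0.90, limma adjusted p = 0.155) therefore describes neither batch. The difference of the changes, B minus A, was 1.39 ± 0.35 and passed the interaction test (limma adjusted p = 0.0511), which 4.21% of all genes did. *PROX1* was the single member to pass, and it no longer passed when any of the 4 libraries of batch A was left out (adjusted p = 0.153 to 0.230). Its baseline differed as well, being 3.65 times higher in non-senescent cells of B than of A.

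**Figure D2:**
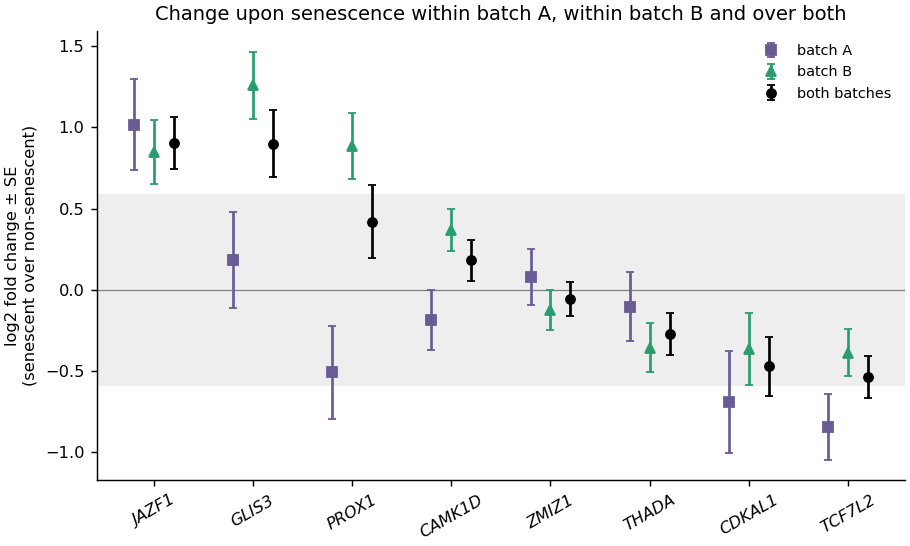
Log2 fold change of senescent over non-senescent cells (vertical axis, ± SE) for the 8 tested genes within batch A (squares, 2 libraries per group), within batch B (triangles, 4 per group) and over both (circles). The grey band marks changes under 1.5-fold. *JAZF1*, *TCF7L2*, *CDKAL1*, *THADA* and *GLIS3* kept their sign between batches, and *PROX1*, *CAMK1D* and *ZMIZ1* did not.

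*CAMK1D* (ENSG00000183049.14, chr10:12349547-12835545, plus strand) also differed in sign between batches, and passed the adjusted p within batch B (limma adjusted p = 0.0362) with a fold of 1.29, under the limit. Its normalised read count was 70.6 and 60.4 in non-senescent against 61.1 and 53.8 in senescent libraries of A. In B it was 151, 161, 149 and 189 against 227, 216, 197 and 197, with every senescent library above every non-senescent one. The log2 fold change was −0.19 in A and 0.37 in B, and 0.18 ± 0.13 over both (95% interval −0.08 to 0.45, limma adjusted p = 0.270). The interval excludes a change past the fold limit over both batches. The interaction did not pass (limma adjusted p = 0.241).

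*THADA* (ENSG00000115970.19, chr2:43230851-43596038, minus strand) and *ZMIZ1* (ENSG00000108175.19, chr10:79068966-79316519, plus strand) did not pass the main test. *THADA* was at 124 and 126 in non-senescent and 114 and 118 in senescent libraries of A, and at 99.4, 82.6, 73.1 and 108 against 65.4, 69.3, 75.5 and 69.8 in B. Its senescent libraries were the lower ones in A without overlap and overlapped in B at the highest of them. The log2 fold change was −0.27 ± 0.13 (95% interval −0.54 to −0.00091, limma adjusted p = 0.106), and −0.36 within B (limma adjusted p = 0.0779). The adjusted p of *THADA* lay near the limit and ranged from 0.0227 to 0.521 over the alternatives, passing with every library scaled to the same total (0.0227), with no intensity trend (0.0681), with a pseudocount of 0.1 (0.0983) and without the non-senescent library B3 (0.0613). The fold stayed under 1.5 in each of these. *ZMIZ1* ranged from 337 to 579 in non-senescent and from 356 to 634 in senescent libraries. It had a log2 fold change of −0.06 ± 0.10 (95% interval −0.27 to 0.16, limma adjusted p = 0.703). Both intervals stay under the fold limit in either direction.

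The remaining members, *ADCY5* and *UBE2E2*, were near the limit of detection. *ADCY5* (ENSG00000173175.16, chr3:123282296-123449090, minus strand) had 0, 0, 0, 1, 0 and 0 reads in the non-senescent libraries A1, A2 and B1 to B4. The senescent libraries, in the same order, had 2, 1, 4, 7, 6 and 0 reads. In total 20 reads came from 5 senescent libraries and 1 read from 1 non-senescent library, a depth-adjusted ratio of 16.2 with a counting interval of 2.59 to 671. The interval covers counting error only. In a fit without the filter on low values its log2 fold change was 1.49 ± 0.48 (limma adjusted p = 0.0377), on the log2(value + 1) scale that shrinks changes of low genes. In that fit *ADCY5* meets both limits of a call, so that 3 members rather than 2 were called higher. *UBE2E2* (ENSG00000182247.11, chr3:23203020-23591794, plus strand) had 3 reads in senescent and 2 in non-senescent libraries, a ratio of 1.21 with a counting interval of 0.139 to 14.5, so no difference was detectable at this depth. A library without reads is compatible with up to 3 reads, or a normalised read count of 1.35 to 4.52.

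A two-sided exact permutation test of the group labels within batch, over 420 arrangements, was run on each member's own values. The exact p was 0.00476 for *JAZF1*, the smallest p that this design allows, and 0.00952 for *GLIS3* and for *THADA*. The permutation gave exact p = 0.0143 for *TCF7L2*, 0.0429 for *ADCY5* and 0.0476 for *CDKAL1*. Exact p was 0.124 for *CAMK1D*, 0.20 for *PROX1*, 0.657 for *ZMIZ1* and 1.0 for *UBE2E2*. These are unadjusted values for 10 genes that were chosen with results known.

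The batches differed more than the groups for several members. In non-senescent cells, 4 of 8 tested members were called between batches, beside 49.8% of all genes. *PROX1* and *CAMK1D* were 3.65 and 2.48 times higher in B, while *CDKAL1* and *JAZF1* were 2.11 and 1.88 times higher in A. Tests within a batch used the model with the batch by group interaction, in which all libraries share a spread. By these, 2 members were called within batch A (*TCF7L2* lower and *JAZF1* higher), beside 15.9% of all genes. Within batch B, 3 were called (*GLIS3*, *JAZF1* and *PROX1*, all higher), beside 26.3%. Groups did not overlap for 6 of 8 members in A, beside 67.8% of all genes, and for 4 of 8 in B, beside 31.3%. Signs were opposite in A and B for 3 of 8 members, beside 29.4% of all genes. None of these shares was tested against the background.

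The members were next set beside 65 other genes of type 2 diabetes loci, listed from general knowledge. Of the 52 that passed the filter, 9 were upregulated and 6 downregulated, 14 passed the adjusted p with a smaller fold, and 23 did not pass. The share called was 28.8%, beside 23.4% of all genes tested. Their median log2 fold change was 0.04. The rises of *JAZF1* and *GLIS3* were exceeded by *DUSP9*, a phosphatase of MAP kinases, which went from 30.5 ± 17.3 to 161 ± 53.9 (SD, n = 6, log2 fold change 2.47, limma adjusted p = 1.8e-08). *PAX4*, a factor of beta-cell development, rose from 22.6 ± 5.33 to 72.4 ± 29.8 (1.57 on the log2 scale). The incretin receptor gene *GIPR* rose by 1.18 on that scale. At the other end were *PRC1*, a cytokinesis gene, at 604 ± 117 and 86.0 ± 10.1 (log2 fold change −2.78), *C2CD4B* (−1.96) and *C2CD4A* (−1.58). *TCF7L2* and *CDKAL1* thus lay well inside the range of the falls. The interaction test passed for 5 of these 52 genes (*SLC30A8*, *KCNK16*, *CDKN2A*, *PAM* and *VPS13C*), beside 4.21% of all genes tested. As for *PROX1*, the groups of *VPS13C* were apart in both batches with opposite signs (−0.28 in A and 0.72 in B). So were those of *KCNK16* (0.51 and −0.30). This pattern was found in 1.85% of all genes tested, or in 1.12% together with a passed interaction test.

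**Figure D3:**
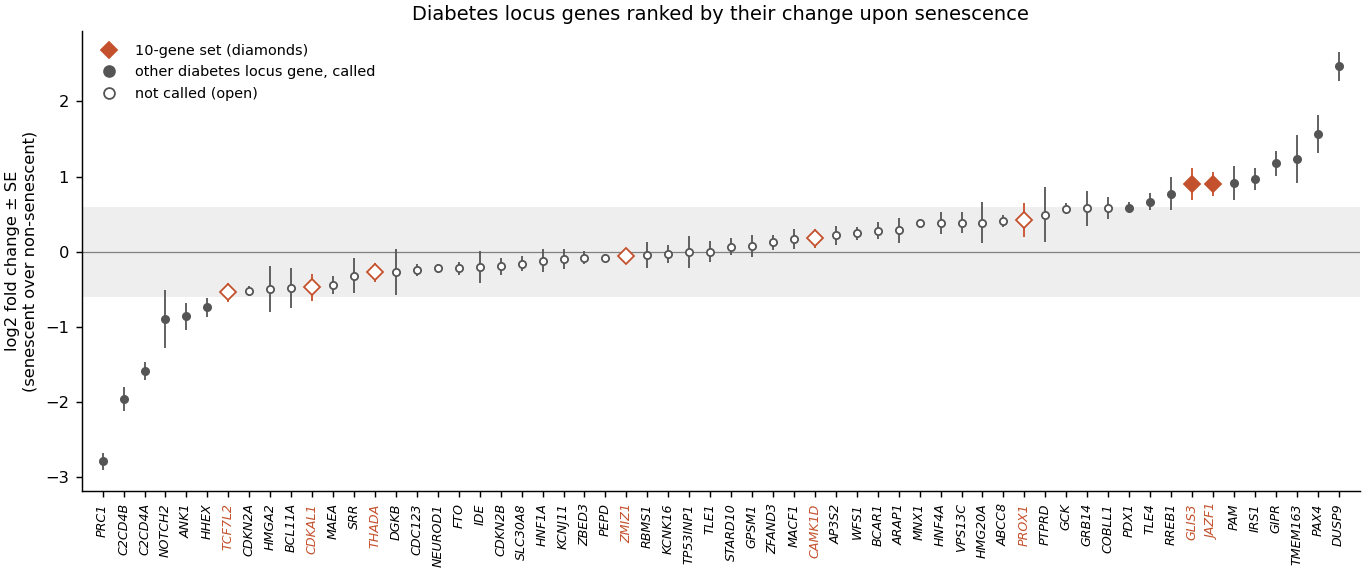
Log2 fold change of senescent over non-senescent cells (vertical axis, ± SE) of the 8 tested members (diamonds) and 52 other type 2 diabetes locus genes (circles), ranked. Filled symbols were called and open symbols were not, and the grey band marks changes under 1.5-fold. The members lie between −0.54 and 0.91, while the others reach from −2.78 to 2.47.

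Paralogs and partners of the members were counted from a list of 45 genes, of which 36 were tested, 4 were called higher and 3 lower, and 17 did not pass the adjusted p. The share called was 19.4%, beside 23.4% of all genes tested. The largest change among relatives of *UBE2E2* was that of *UBE2E3*, a paralog, which rose from 368 ± 43.3 to 810 ± 227 (log2 fold change 1.10 ± 0.10, limma adjusted p = 1.2e-07). The other paralog, *UBE2E1*, had a change of 0.13 ± 0.15 (limma adjusted p = 0.531). Salmon divides reads among similar transcripts, so values of such paralogs are uncertain to that extent. Of 10 tested calmodulin and calmodulin kinase genes around *CAMK1D*, 3 rose and 2 fell, too few genes to set a share against the 23.4% of all genes called. *CALM3*, which encodes calmodulin, rose by 0.66 on the log2 scale, as did the upstream kinase gene *CAMKK1* by 0.91. The paralog *CAMK1* had a log2 fold change of −1.34 ± 0.41, with 0.01 in A and −2.02 in B, and the kinase gene *CAMKK2* one of −0.59 ± 0.15.

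Around *ADCY5*, 10 of 13 adenylyl cyclase and cAMP genes were tested and 1 was called. That was *ADCY3*, which fell from 9.46 ± 5.83 to 1.53 ± 1.28 normalised reads (log2 fold change −1.99 ± 0.48). Its mean over all libraries, 5.49, lay just above the filter of 5 and was reached only through the non-senescent group. In total it had 47 non-senescent and 10 senescent reads, so this call lies near the limit of detection. The cyclase gene *ADCY1* had a change of 0.34 ± 0.09, under the fold limit. None of the 3 tested Wnt genes was called: *TCF7*, a paralog of *TCF7L2*, had a log2 fold change of −0.58 ± 0.22 (limma adjusted p = 0.0453), just under the fold limit, the Wnt target *AXIN2* one of 0.52 ± 0.23, and *CTNNB1*, encoding β-catenin, one of 0.21 ± 0.14. Among the 4 tested genes listed beside *CDKAL1*, *CDK5RAP1*, which encodes a related methylthiotransferase, had a change of −0.29 ± 0.16 (limma adjusted p = 0.156). *GLIS2*, a paralog of *GLIS3*, had a change of 0.50 ± 0.07 with separate groups in both batches, below the fold limit. *NR2C2*, which encodes the nuclear receptor that JAZF1 binds, had a change of 0.36 ± 0.12.

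Since a locus can hold several candidate genes, the nearest protein-coding gene on each side of every member was examined. Of these 20 neighbours 15 were tested, and 1 was called, *PPIF*, which encodes the mitochondrial cyclophilin and starts 31.0 kb beyond *ZMIZ1*. That is 6.67% of the tested neighbours, beside 23.4% of all genes. *PPIF* fell from 877 ± 68.7 to 463 ± 106 (SD, n = 6, log2 fold change −0.95 ± 0.10, limma adjusted p = 1.4e-06), whereas *ZMIZ1* did not pass the test. The change of *PPIF* was −0.53 in A, under the fold limit, and −1.15 in B, and this difference passed the interaction test (limma adjusted p = 0.046). Beside *THADA*, *ZFP36L2* had a change of 0.57 ± 0.12, opposite in sign to *THADA* and just under the fold limit. *SMYD2*, downstream of *PROX1*, was lower in both batches (−0.34 in A and −0.46 in B) and had a pooled change of −0.42 ± 0.10. *E2F3*, next to *CDKAL1*, had a change of −0.57 ± 0.25 (limma adjusted p = 0.0862). *CDC123*, next to *CAMK1D*, had one of −0.24 ± 0.08 (limma adjusted p = 0.0278), with −0.02 in A and −0.35 in B. The called members *JAZF1* and *GLIS3* each had 1 tested neighbour, *TAX1BP1* and *RFX3*, and neither passed. *RFX3* had a change of −0.12 ± 0.12.

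**Figure D4:**
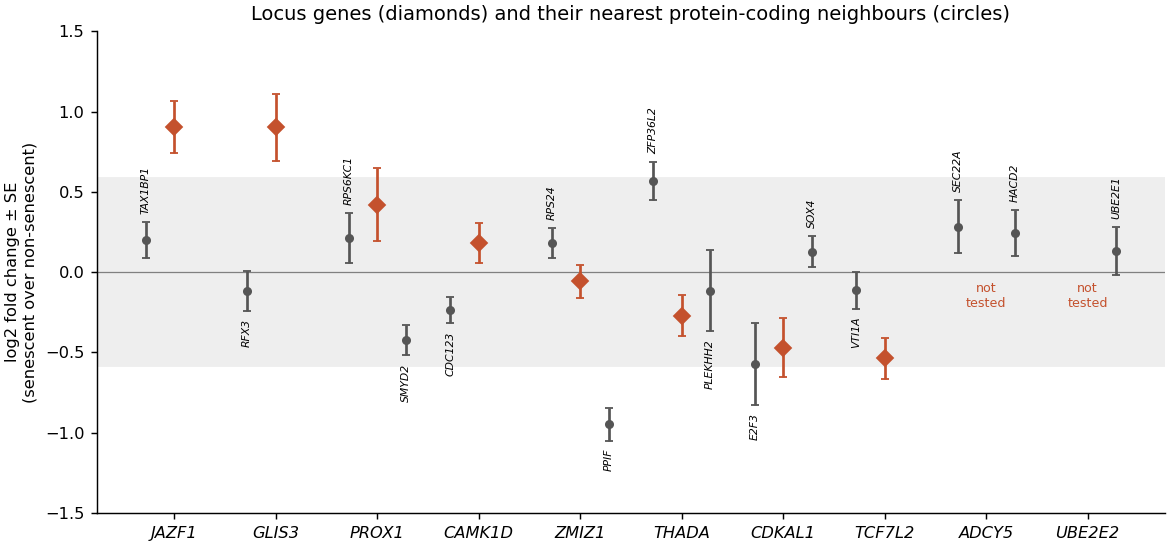
Log2 fold change of senescent over non-senescent cells (vertical axis, ± SE) for the members (diamonds) and their nearest protein-coding neighbours that passed the filter (circles, named). Neighbours at lower coordinates are to the left and those at higher coordinates to the right. *ADCY5* and *UBE2E2* have no diamond and are marked as not tested. The grey band marks changes under 1.5-fold. *PPIF*, beside *ZMIZ1*, is the only neighbour outside the band that was called, at −0.95.

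A feature that all 10 members share is length. Each spans more than the median of 35.2 kb over 12673 tested protein-coding genes, from 58.3 kb for *PROX1* to 698 kb for *CDKAL1*. The shortest, *PROX1*, is at percentile 65.3 of these spans. Over all genes, the median log2 fold change rose with span, from −0.08 below 10 kb to 0.13 above 300 kb, and 32.1% of genes in the longest class were called. The 5 tested members in that class did not follow a common direction, with *JAZF1* and *GLIS3* above its upper quartile of 0.51, *CDKAL1* and *THADA* below its lower quartile of −0.24, and *CAMK1D* near the median.

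**Figure D5:**
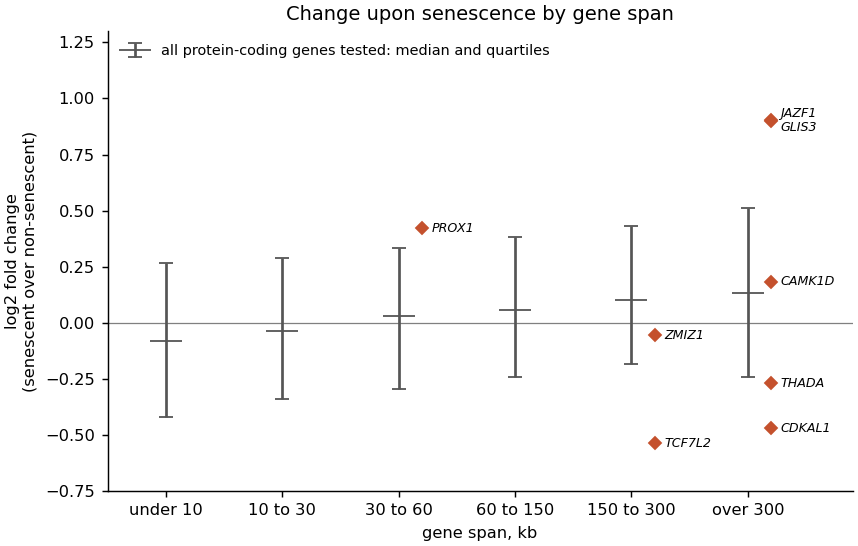
Log2 fold change of senescent over non-senescent cells (vertical axis) by gene span in kb (horizontal axis, 6 classes) for tested protein-coding genes, as the median with quartiles (bars), with the 8 tested members as diamonds. The class medians rise from −0.08 to 0.13, and members of the longest class lie on both sides of its quartiles.

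How the members varied together was described by Pearson's r over the 12 libraries after subtracting batch means, a measure that keeps the difference between groups, so genes that changed alike correlate. *GLIS3* and *PROX1* had an r of 0.71, *TCF7L2* and *CDKAL1* of 0.67, and *GLIS3* and *JAZF1* of 0.66. The lowest values were −0.83 for *THADA* with *PROX1* and −0.82 for *CDKAL1* with *JAZF1*. The members thus formed no common block. Among 11681 genes, the most like *JAZF1* were *ZMYND11*, *ABLIM1* and *NKIRAS1* (r of 0.98, 0.97 and 0.96). For *GLIS3* they were *HINT3*, *PPL* and *CHP1* (all 0.97), and for *TCF7L2* they included *MRPS11* and *SCML2* (0.96 and 0.94). Those of *CDKAL1* were *CEP76*, *PSMD11* and *ERLIN1* (0.94, 0.90 and 0.89).

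For *PROX1* the most similar genes were *RC3H2*, *MAP3K2* and the Notch target *HES1* (all 0.93). Each of these was lower in A and higher in B, like *PROX1* itself: *HES1* had a log2 fold change of −0.15 in A and 1.59 in B. Such a likeness in sign is largely built in, because the genes were picked by a correlation that keeps the changes within batches. *CAMK1D* was closest to *AC093752.1*, *ESPN* and *ACSL3* (0.95, 0.93 and 0.91), of which *ESPN* had changes of −1.84 in A and 1.91 in B. *THADA* was closest to *MRPL47*, *C12orf75* and *HNRNPA1* (0.96, 0.95 and 0.94), and *ZMIZ1* to *ABCF2*, *BCOR* and *FLRT2* (0.91, 0.89 and 0.89). With 12 libraries and this many genes, high values are reached by many pairs, and they are given as a description.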

How the data were processed

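RNA of 12 EndoC-βH3 libraries was sequenced by CEL-seq. By the study's methods and processing notes, the authors used cutadapt for trimming, Salmon 0.13.1 for quantification on GRCh38 and DESeq2 for normalisation. What they deposited is a signal: the reads of a gene over the size factor of the library. Handling of molecular identifiers, strand and the transcript annotation is not given in the sources used here. The deposited table also holds the authors' log2 fold changes, their standard errors, test statistics (a score), p-values and adjusted p-values, none of which was used.

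All 196021 non-zero values were whole multiples of the value of 1 read (100.0%, tolerance 0.01), so whole counts were recovered, called reads here. Rounded Salmon estimates or molecule counts would also be whole. The counts may therefore not be single reads, and the counting errors given rest on that reading. The main test was limma 3.58.1 (R 4.3.3, intensity trend) on log2(value + 1) with batch and group, for 13847 genes with a mean of at least 5, with Benjamini-Hochberg adjustment over all of them. The batch by group interaction was tested at an adjusted p under 0.1. Simulated data were used to test the procedure. Alternatives were other pseudocounts, filters and scalings (TMM, same total, upper quartile), no batch term, a replicate block, each batch alone, no trend, edgeR 4.0.16 and DESeq2 1.42.0 on recovered reads, and each library left out. Libraries of a group differed by more than sampling noise (chi-square per degree of freedom of at least 4.14). Positions came from GENCODE 44.

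The members and the lists were chosen with earlier results of these data known. Text names all members; called genes of each list or among neighbours with the 3 largest rises and falls and a mean of at least 20; and the 3 genes most correlated with each tested member. Some genes that this rule names are not reported here. Other genes named in the text were chosen after their values were seen.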

Additional observations from a re-analysis of the deposited data

Results flagged for a closer look

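The change of *PROX1* upon senescence in batch B minus that in batch A was 1.39 on the log2 scale (SE 0.35, limma interaction adjusted p = 0.0511). It was singled out because the responses in the 2 batches differ by a test of the difference itself. The senescent libraries were lower in A in 2 of 2 and higher in B in 4 of 4, relative to every non-senescent library of their batch. The batches also differ in depth, in the number of libraries and in the level of *PROX1* in non-senescent cells, and the part of these in the difference was not tested. No member had a library that stood apart from the others of its group within 8 genes and 4 groups tested for this (32 tests in all). The groups of batch A hold 2 libraries each, where neither can be told to stand apart, so the check bears on batch B only.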

How the results depend on the processing

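*JAZF1* was called higher under every alternative run, with log2 fold changes of 0.80 to 1.02, and *GLIS3* under every one except batch A alone (0.18). With no filter 3 members were called higher (*ADCY5* too), as with batch B alone (*PROX1* too). With batch A fitted alone, and so with its own spread, 1 member was called higher and 2 lower (*TCF7L2* and *CDKAL1*). *CDKAL1* had a limma adjusted p of 0.0182 in that fit, against 0.165 within A in the model with the interaction. No neighbour was called with batch A alone, and the signs of *CAMK1D* (−0.19), *ZMIZ1* (0.079) and *PROX1* (−0.51) reversed. With libraries left out in turn, *ZMIZ1* ranged from −0.117 to 0.024, reversing without the non-senescent library B1. Scaling to the same total, which shifts the median of all genes to −0.09, called 1 member lower (*TCF7L2*, −0.64) and 2 neighbours. Neighbour calls were 2 with no filter and 2 with batch B alone. Members passing the interaction test were 0 with no filter, 0 with no intensity trend and 2 with DESeq2, the other being *GLIS3* (adjusted p = 0.0741). Over the libraries left out in turn, members called lower ranged from 0 to 1, members with an interaction from 0 to 2, and neighbours called from 1 to 3. *GLIS3* passed the interaction test without the non-senescent library B3 (1.24, adjusted p = 0.0617). Other diabetes locus calls ranged from 10 to 18 and family calls from 5 to 9 over all alternatives. Causes were not tested.

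Replicate numbers are shared between the groups, but same-numbered libraries did not deviate together (correlations of −0.051 to 0.016). With the replicate block, 2 members were called higher and 0 lower, and 14 other diabetes locus genes, 7 family genes and 1 neighbour were called. Depth limits *ADCY5* and *UBE2E2*, with at most 7 reads in a library.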
